A study of Homo sapiens with 15 samples.

Results

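The zinc finger genes of chromosome 19 were taken as the protein-coding genes on that chromosome whose symbol is ZNF followed by a number, and 240 of the 20162 coding genes of the Gencode annotation met this rule. They made up 240 of the 1480 coding genes on the chromosome. Each gene was represented by the start of its canonical transcript in hg19 (GRCh37), and its loops were all deposited anchor pairs with a 1 kb anchor overlapping the window of 2.5 kb on either side of that start. Together the 240 promoters held 7110 of the 505995 distinct loops, which was 1.41% of them.

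The loops came from HiChIP, a method that joins DNA ends held close together in the nucleus and then pulls down chromatin carrying a chosen histone mark. LNCaP cells, a prostate cancer line that responds to androgen, were kept in charcoal-stripped serum for 3 days and then given ethanol vehicle (0 m) or 10 nM DHT for 30 min, 4 h, 16 h or 72 h. H3K27ac was measured in 10 samples, 2 per time point, and H3K4me3 in 5 samples, 1 per time point. In the deposited files each loop carries 1 value for a mark at a time, and no spread between replicates could be given.

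Most ZNF genes encode proteins with a row of C2H2 zinc fingers, often behind a KRAB domain that recruits TRIM28 and H3K9 methylation to DNA, and many of their targets are retroelements. On chromosome 19 they arose by repeated tandem duplication and lie in dense clusters, so neighbours often share promoter sequence. H3K27ac marks active promoters and enhancers, while H3K4me3 marks active promoters, and HiChIP of these marks reports the contacts of chromatin that carries them.

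The value analysed was the contact signal of each loop in each table, which the authors had normalised among the time points of a mark. Within each table all values were multiples of a fixed step, the weight of 1 read pair, and dividing by it recovered the read pairs. For H3K27ac the member loops held 17448 read pairs at 0 m, 40301 at 30 min, 25651 at 4 h, 29409 at 16 h and 26896 at 72 h. For H3K4me3 they held 48845, 42215, 194966, 77066 and 43510 pairs in the same order. The 4 h H3K4me3 table was thus by far the deepest. Over all loops the totals were 2475168, 4308555, 3569078, 4066305 and 3112568 pairs for H3K27ac, and 2567961, 2153262, 10675614, 4115072 and 2413317 for H3K4me3. The median member loop held 1 or 2 pairs in the H3K27ac tables and 2 to 11 in the H3K4me3 tables, so the results below rest on sums and means over many loops. All intervals are 95% exact (Clopper-Pearson) or order-based intervals and cover counting error only.

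Promoter sequence is shown for 6 members, each as the 250 bases upstream of the annotated start, 5′ to 3′ on the strand of the gene, from the GRCh37 genome. In the first 3, 2 with many loops and 1 with none, every CG is in capitals. The median number of CG pairs rose with loop number over the whole family, though not within every cluster. ZNF766 (chr19:52772590-52772839, plus strand) had 102 loops and 20 CG pairs, and ZNF793 (chr19:37997591-37997840, plus strand) had 106 loops and 10. ZNF536 (chr19:30863041-30863290, plus strand) had no loop and 4. ZNF766 and ZNF793 were among the members with the most loops, and ZNF536 was chosen for its known role.
ZNF766: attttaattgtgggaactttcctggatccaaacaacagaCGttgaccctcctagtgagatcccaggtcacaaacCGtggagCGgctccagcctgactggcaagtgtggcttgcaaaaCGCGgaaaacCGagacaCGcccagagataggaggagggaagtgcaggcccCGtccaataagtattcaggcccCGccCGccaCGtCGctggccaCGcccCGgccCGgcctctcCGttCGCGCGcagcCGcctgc
ZNF793: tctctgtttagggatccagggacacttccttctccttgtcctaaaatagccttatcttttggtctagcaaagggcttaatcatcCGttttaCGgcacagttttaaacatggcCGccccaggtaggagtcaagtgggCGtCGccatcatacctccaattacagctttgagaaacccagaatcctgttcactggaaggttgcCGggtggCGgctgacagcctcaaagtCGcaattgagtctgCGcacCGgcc
ZNF536: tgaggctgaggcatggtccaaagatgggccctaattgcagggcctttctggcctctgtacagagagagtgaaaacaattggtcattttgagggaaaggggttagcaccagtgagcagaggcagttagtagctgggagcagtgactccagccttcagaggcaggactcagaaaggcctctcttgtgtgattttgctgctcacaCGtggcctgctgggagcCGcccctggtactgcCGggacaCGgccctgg

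A second set shows how alike promoters of the same cluster can be when their loops are not. ZNF91 (chr19:23578274-23578523, minus strand) had 78 loops, and ZNF492 (chr19:22816876-22817125, plus strand), chosen after its values were seen, had none. Both lie in the same cluster. Capitals mark the bases inside runs of 12 bases that both sequences contain, which were 122 of the 250 bases in either promoter.
ZNF91: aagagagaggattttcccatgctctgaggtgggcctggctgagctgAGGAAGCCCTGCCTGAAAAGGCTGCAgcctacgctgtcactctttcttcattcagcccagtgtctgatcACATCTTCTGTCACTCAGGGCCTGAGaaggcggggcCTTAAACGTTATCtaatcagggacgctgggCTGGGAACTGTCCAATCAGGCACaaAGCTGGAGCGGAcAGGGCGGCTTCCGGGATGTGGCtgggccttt
ZNF492: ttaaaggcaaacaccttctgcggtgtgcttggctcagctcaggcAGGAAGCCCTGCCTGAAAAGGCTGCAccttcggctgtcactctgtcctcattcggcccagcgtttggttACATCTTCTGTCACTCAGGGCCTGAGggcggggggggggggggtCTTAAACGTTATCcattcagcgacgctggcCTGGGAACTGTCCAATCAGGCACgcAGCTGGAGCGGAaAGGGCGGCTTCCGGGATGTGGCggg

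The last sequence shows an 8-base ETS-type motif that was more frequent among the members than among all coding promoters. ZNF787 (chr19:56632665-56632914, minus strand) had 44 loops, among them the member loop with the highest mean H3K27ac contact over the 5 times. Capitals mark CCGGAAGT or its reverse complement ACTTCCGG, which overlap here in a palindrome and so were found on both strands.
ZNF787: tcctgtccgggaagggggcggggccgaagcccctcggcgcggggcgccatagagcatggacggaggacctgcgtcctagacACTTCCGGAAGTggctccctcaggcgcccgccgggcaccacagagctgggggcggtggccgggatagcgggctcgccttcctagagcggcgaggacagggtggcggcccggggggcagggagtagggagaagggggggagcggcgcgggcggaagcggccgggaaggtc

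How richly these promoters were looped was asked first, against all coding promoters and against 3 nearer sets. Within the 2.5 kb window the chromosome 19 zinc finger promoters were rich in loops, and almost all of them were looped. Of the 240 members, 225 had at least 1 loop, which was 93.8% (89.9 to 96.5), while the share over all coding promoters was 81%. The median member had 36 loops (32 to 41), against 13 over all coding promoters. The quartiles were 18 and 55 loops for the members and 1 and 33 for all coding promoters, so the lower quartile of the members lay above the general median. At least 30 loops were found at 148 members (61.7%) and at 28.8% of all coding promoters.

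**Figure D1:**
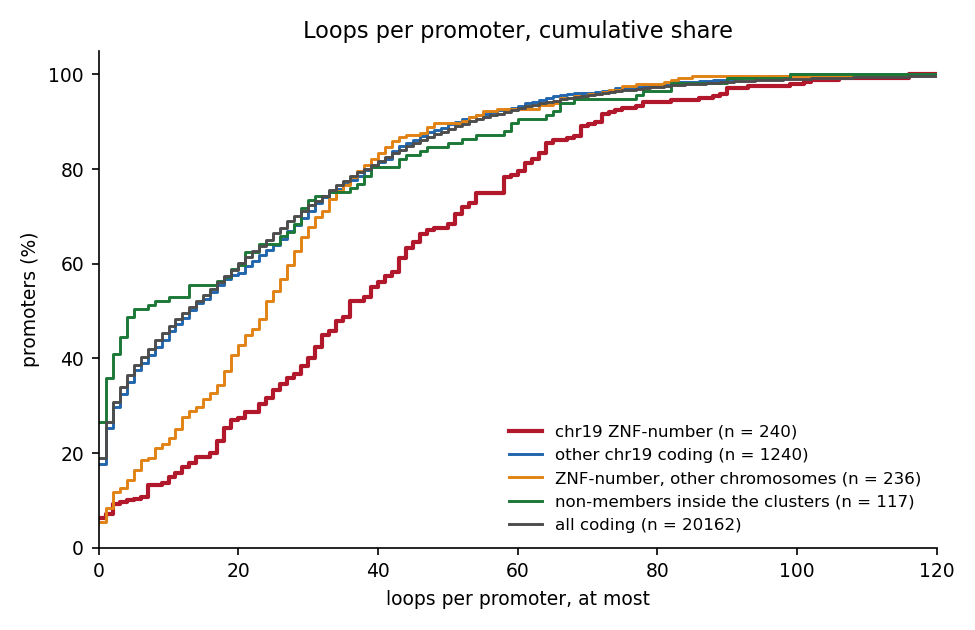
Cumulative share of promoters with at most the given number of loops, for the chromosome 19 zinc finger promoters and 4 other sets. The curve of the members lies to the right of the other 4 curves from about 10 to about 100 loops.

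Within that window neither the chromosome nor the gene family by itself showed the same richness. The 1240 other coding promoters of chromosome 19 had a median of 13 loops, and 82.3% of them had a loop. The 236 numbered ZNF promoters on other chromosomes came closer, with a median of 24 loops and 94.5% looped. The 117 coding promoters that lie inside the ZNF clusters without being members had a median of 5 loops (2 to 20), and 73.5% had a loop. The curves of loop number show the members apart from all of these sets over most of the range. The counts depended on the window. With a window of 1 kb 51.3% of the members had a loop, against 47.4% of all coding promoters and 56.8% of ZNF promoters elsewhere, and the medians were 2, 0 and 7 loops, so the lead of the members over other ZNF promoters was not seen there. With a window of 5 kb the median of the members was 39.5 and that of the non-members inside the clusters 17, the same as over all coding promoters. With loops of the H3K27ac set alone the medians for members, all coding promoters and ZNF promoters elsewhere were 11, 4 and 8, and the order was kept. Anchors lay at 5 kb spacing, and 42 members shared part of their window with another coding gene, so loops were counted per window and not per gene product.

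The members with the most loops were ZNF490 and ZNF791, which start next to each other on opposite strands (12721627 and 12721734) and shared all of their 116 loops. ZNF793 followed with 106 loops, ZNF766 with 102, ZNF17 with 101 and ZNF549 with 99. These promoters sat in 4 different clusters. The median length of their loops was 552.5 kb at ZNF490, 455 kb at ZNF793, 452.5 kb at ZNF766, 570 kb at ZNF17 and 555 kb at ZNF549. The most looped members thus reached farther than the typical member loop.

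Where the loops lay along the chromosome was asked next, by joining members at most 500 kb apart into clusters of at least 5. This gave 10 clusters with 228 members and left 12 members outside. In 6 clusters every member had a loop, and these included the largest and the smallest. Of the 15 members without a loop, 9 belonged to a single cluster.

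**Figure D2:**
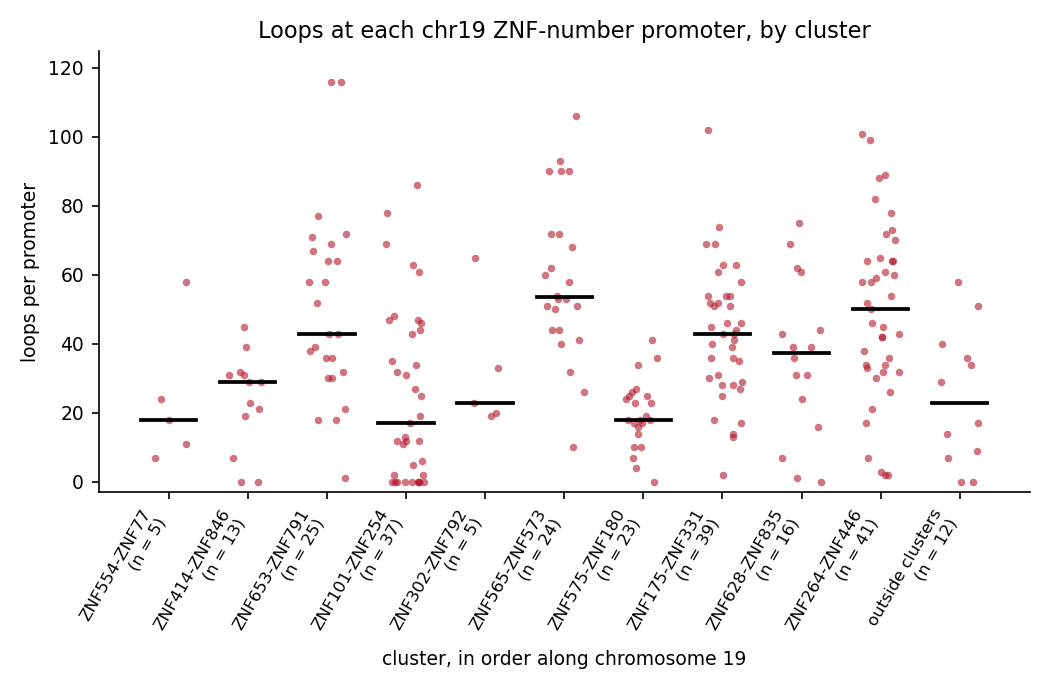
Loops at each chromosome 19 zinc finger promoter, with clusters in order along the chromosome and a bar at each median. Points are genes and are not independent replicates. The row of points at 0 is longest in the cluster from ZNF101 to ZNF254.

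The cluster from ZNF565 to ZNF573 had the highest median, 53.5 loops over 24 members. ZNF264 to ZNF446, the largest cluster with 41 members, had a median of 50, and ZNF653 to ZNF791 (25 members) and ZNF175 to ZNF331 (39 members) each had 43. The medians were 37.5 for the 16 members of ZNF628 to ZNF835, 29 for the 13 of ZNF414 to ZNF846 and 23 for the 5 of ZNF302 to ZNF792. The lowest medians belonged to ZNF554 to ZNF77 with 18 loops over 5 members, ZNF575 to ZNF180 with 18 over 23 and ZNF101 to ZNF254 with 17 over 37. Rich clusters were thus found on both arms, while the large cluster next to the centromere on the short arm was the poorest.

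That cluster, ZNF101 to ZNF254, had the most members without a loop. It spans 4495 kb and held 28 looped members and 9 without a loop. The highest count in it was 86 loops. Its loopless members were mostly side by side, since 8 neighbouring members from ZNF208 to ZNF723 had no loop at all. No anchor of any loop lay in this stretch of 826.3 kb (chr19:22191245-23017593), which was picked after its values were seen. No other coding gene starts there. The next members on either side, ZNF43 and ZNF728, had 27 and 6 loops and lay 158.8 and 170.9 kb away. Chromosome 19 carried 43.1 loops per 100 kb between its first and last anchor, the whole cluster 25.3, and ZNF264 to ZNF446 as many as 142.9.

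Reads that cannot be placed uniquely would also leave a promoter without loops, and the promoter windows were checked for this, though not the rest of the loopless stretch. Over the 5 kb window of the median member, 97.1% of 50-base words occurred nowhere else on chromosome 19. In the cluster ZNF101 to ZNF254 the median was 93.3% for the 9 loopless members and 96.8% for the 28 looped ones. Repetition was thus a little greater at the loopless promoters, but most of their sequence was unique on the chromosome. Copies on other chromosomes were not counted, and whether the missing loops came from mapping or from inactive chromatin was not tested.

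How far the loops reached was the next question, since clustered genes could be joined to near neighbours only. Taken over both loop sets, the member loops were longer than those of coding promoters in general. Their median length was 297.5 kb (285 to 310), against 225 kb over the loops of all coding promoters, 220 kb at the other chromosome 19 promoters and 215 kb at ZNF promoters elsewhere. Non-member promoters inside the clusters had a median of 305 kb, but 66.9% of their 2095 loops also lay at a member promoter. The 694 others had a median of 270 kb (235 to 305). The lead in length depended on the loops counted. In the H3K27ac set alone the medians were 160 kb for the members and 155 kb for all coding promoters, and over loops averaging a contact of at least 1 in either mark 100 and 90 kb. Loops of at least 1 Mb made up 9.06% of the member loops and 5.62% of all coding promoter loops. By cluster the median ran from 145 kb in ZNF575 to ZNF180 to 457.5 kb in ZNF264 to ZNF446.

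The loops nevertheless stayed within their clusters for the most part. Of the 6817 loops of clustered members, 5376 had the other anchor inside the span of the same cluster, a share of 78.9% (77.9 to 79.8). The share was highest in the widest cluster, ZNF101 to ZNF254, with 95.7%, and reached 92.0% in ZNF175 to ZNF331 and 89.1% in ZNF575 to ZNF180. It was lowest in the narrow cluster ZNF554 to ZNF77, 130.1 kb wide, with 26.2%, and in ZNF302 to ZNF792 with 37.3%. The share followed the width of the cluster to a large degree, but ZNF628 to ZNF835, at 1200 kb, kept only 41.9% of its loops inside.

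What stood at the other end of the loops was also asked. The members were joined to promoters far more often than coding promoters in general, and the partners were mostly other members of their own cluster. A coding promoter lay at both anchors in 2874 of the 7110 loops, 40.4% (39.3 to 41.6), while the share over all coding promoter loops was 14.6%. It was 36.2% at the other chromosome 19 promoters, so a high share was common on this gene-dense chromosome, and 24.7% at ZNF promoters elsewhere. The non-member promoters inside the clusters had the highest share, 55.8%. With a window of 1 kb these shares were lower, at 21.4% for the members, 8.04% for all coding promoters, 19.4% for the other chromosome 19 promoters and 13.9% for ZNF promoters elsewhere. The median member had 26 coding starts within 500 kb, against 33 for other chromosome 19 genes and 12 for all coding genes.

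**Figure D3:**
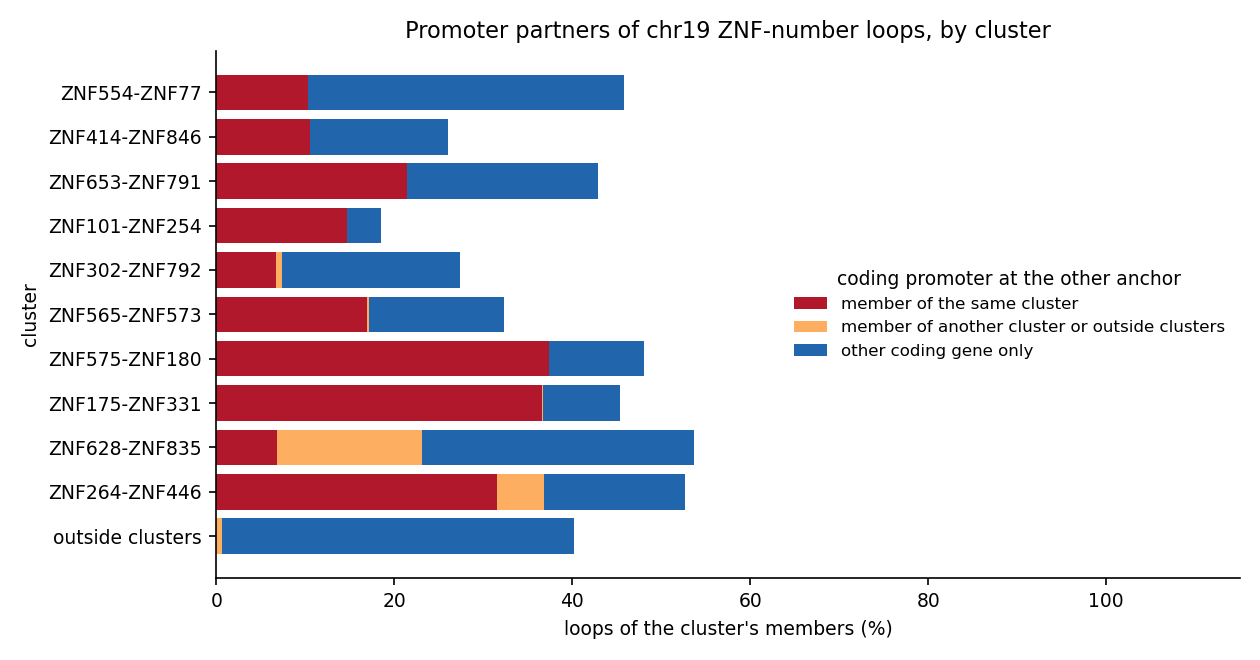
Share of the loops of each cluster whose other anchor met a coding promoter, divided by the kind of partner. Same-cluster members are the most frequent partners in ZNF101 to ZNF254, ZNF565 to ZNF573, ZNF575 to ZNF180, ZNF175 to ZNF331 and ZNF264 to ZNF446. They are about as many as other coding genes in ZNF653 to ZNF791 and are fewer elsewhere.

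A second member of the same cluster was the partner in 1636 loops, 23.0% of all member loops and 56.9% of those between promoters. Another coding gene alone was the partner in 1153 loops, or 16.2%. Members of a different cluster, or outside the clusters, were partners in only 85 loops, or 1.20%. At least 1 loop to another member was found at 216 of the 240 members. The authors called loops of up to 3 Mb only, and most gaps between neighbouring clusters are longer, so the lists could hold no loop across those gaps.

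The clusters differed in how much of this contact stayed in the family. Same-cluster members were at the far end of 37.4% of the loops in ZNF575 to ZNF180, 36.6% in ZNF175 to ZNF331 and 31.6% in ZNF264 to ZNF446. The share was 6.79% in ZNF628 to ZNF835, which has 24 other coding genes in its span beside its 16 members, and 16.4% of its loops went to members of another cluster or outside. Nearly all of these, 81 loops with a median length of 1160 kb, ran to ZNF264 to ZNF446, its neighbour on the long arm. Their mean H3K27ac contact was 0.123 at 0 m, 0.104 at 30 min, 0.124 at 4 h, 0.107 at 16 h and 0.149 at 72 h. Their mean H3K4me3 contact was 0.418, 0.287, 0.372, 0.332 and 0.346. These long contacts were weak at all times in both marks, but so were member loops of 1 Mb or more in general. Those averaged 0.121 at 0 m and 0.142 at 30 min in H3K27ac, and 0.305 and 0.312 in H3K4me3. Only 1 loop joined ZNF302 to ZNF792 with ZNF565 to ZNF573, and 1 joined ZNF175 to ZNF331 with ZNF628 to ZNF835.

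The strength of contact was compared before the hormone was added. The member loops were weak in H3K27ac and of ordinary strength in H3K4me3. Their mean H3K27ac contact at 0 m was 0.721, which was 0.627 of the mean over the loops of all coding promoters (1.15). Their mean H3K4me3 contact was 1.94, which was 0.984 of that mean (1.97). The other chromosome 19 promoters stood at 1.22 and 1.51 of the general mean in the 2 marks, and ZNF promoters elsewhere at 0.972 and 1.07. Non-member promoters inside the clusters stood near the members, at 0.711 and 0.985, but 66.9% of their loops were member loops as well.

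Longer loops are weaker, and the low H3K27ac of the members was seen at every length. Among loops under 100 kb the members stood at 0.771 of all coding promoters in H3K27ac and at 1.18 in H3K4me3. From 100 to 500 kb the ratios were 0.619 and 1.03, from 500 kb to 1 Mb 0.652 and 1.09, and at 1 Mb or more 0.658 and 1.02. The member loops were below the general mean in H3K27ac and at or above it in H3K4me3 in every length class. Because each member had many loops, the contact summed over a promoter was still high, with a median at 0 m of 22.0 against 11.5 over all coding promoters in H3K27ac and 63.5 against 19.7 in H3K4me3. The loops were also called more often in the H3K4me3 set alone, 66.6% of member loops against 59.7% for all coding promoters.

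Clusters differed in strength at 0 m as well. In H3K27ac the mean was highest in ZNF628 to ZNF835 with 1.31 and ZNF554 to ZNF77 with 1.19, and lowest in ZNF575 to ZNF180 with 0.493, ZNF175 to ZNF331 with 0.548 and ZNF565 to ZNF573 with 0.567. In H3K4me3 it was highest in ZNF554 to ZNF77 with 3.15 and lowest in ZNF101 to ZNF254 with 1.29. The poorest cluster in loop number was thus also the weakest in H3K4me3 contact, though not in H3K27ac. Within a promoter the contact was concentrated in near loops, since the strongest loop of the median member was 5 kb long and carried 23.5% of its H3K27ac contact, against 27.8% over all coding promoters.

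Whether androgen changed these contacts was asked for each time point against 0 m, and the 4 comparisons of a mark share that 0 m table. The whole set of loops shifted between tables, so changes of members are given relative to the change over all loops. That shift was 0.09, 0.07, 0.25 and 0.17 log2 units at 30 min, 4 h, 16 h and 72 h in H3K27ac, and 0.02, 0.22, 0.14 and -0.13 in H3K4me3. The members showed an early and a late rise in H3K27ac contact and little movement in H3K4me3.

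The mean H3K27ac contact of the member loops was 0.721 at 0 m, 1.02 at 30 min, 0.771 at 4 h, 0.878 at 16 h and 0.995 at 72 h. It was thus lowest at 0 m and highest at 30 min and 72 h. It rose by 0.41 log2 units (0.38 to 0.43) relative to all loops at 30 min, stood at 0.03 (0.00 to 0.06) at 4 h and 0.04 (0.01 to 0.06) at 16 h, and rose by 0.29 (0.27 to 0.32) at 72 h. As deposited, the changes were 0.50, 0.10, 0.28 and 0.47, so most of the 16 h rise was shared with all loops.

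The early rise was shared by the rest of the chromosome, while the late rise was largest at the members and not at ZNF promoters elsewhere. At 30 min the other chromosome 19 promoters rose by 0.45 relative to all loops, slightly more than the members, while all coding promoters rose by 0.19 and ZNF promoters elsewhere by 0.22. At 72 h the members stood at 0.29, but the other chromosome 19 promoters at 0.09 (0.07 to 0.10), ZNF promoters elsewhere at 0.09 (0.06 to 0.11) and all coding promoters at 0.08. The non-member promoters inside the clusters lay between, at 0.17 (0.12 to 0.22), but most of their loops were member loops as well. Split in this way after the data were seen, the shared loops stood at 0.27 (0.20 to 0.33) and the others at 0.04 (-0.04 to 0.11). The 72 h rise of the members was present in every length class, with 0.29 under 100 kb, 0.29 from 100 to 500 kb, 0.39 from 500 kb to 1 Mb and 0.16 beyond, against 0.16, -0.10, -0.06 and -0.07 for all coding promoters. For the non-members inside the clusters the values were 0.13, 0.28, 0.27 and -0.06. Without the shared loops their value from 100 to 500 kb was 0.17 (0.01 to 0.34). The other chromosome 19 promoters were at 0.10, 0.02, 0.25 and 0.04, and ZNF promoters elsewhere at 0.11, 0.04, 0.10 and -0.12. From 500 kb to 1 Mb the other chromosome 19 promoters still stood at 0.18 (0.09 to 0.28) without loops shared with members. A rise in that class was thus not limited to the members. With 1 value per time point, differences between libraries and effects of the hormone cannot be told apart.

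**Figure D4:**
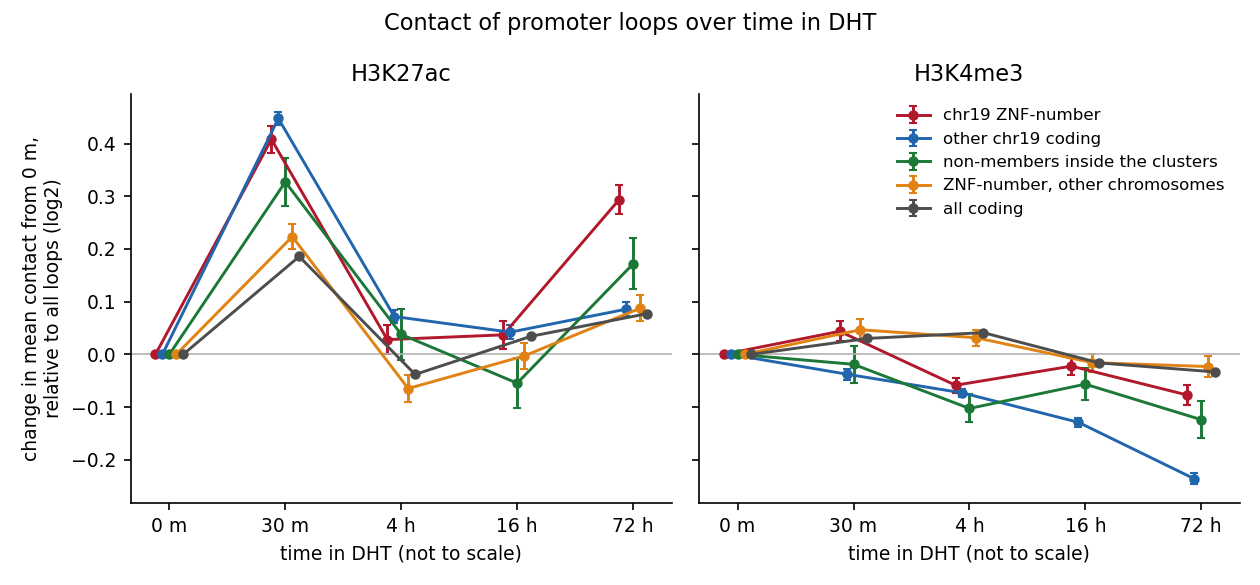
Change in mean contact from 0 m relative to all loops, for the members and 4 other sets in both marks, with 95% intervals for counting error. At 30 min the members and the other chromosome 19 promoters rise together in H3K27ac, and at 72 h the members are highest, followed by the non-members inside the clusters. As deposited, the H3K4me3 changes of the members at 4 h and 16 h are above 0, and they fall below 0 only relative to all loops.

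In H3K4me3 the mean contact of the member loops was 1.94 at 0 m, 2.03 at 30 min, 2.17 at 4 h, 2.10 at 16 h and 1.68 at 72 h. Set against all loops this was 0.04 (0.02 to 0.06) at 30 min, -0.06 (-0.07 to -0.04) at 4 h, -0.02 (-0.04 to -0.01) at 16 h and -0.08 (-0.10 to -0.06) at 72 h. As deposited the 4 h and 16 h changes were 0.17 and 0.11, so their direction flipped when set against all loops, and the 72 h change was -0.20. In the mean the members thus stayed close to the bulk of the H3K4me3 loops, but length classes went different ways. Relative to all loops, members stood at -0.10 at 4 h and -0.14 at 72 h under 100 kb. From 500 kb to 1 Mb they stood at 0.22 and 0.18. All coding promoters were at 0.03 and -0.10 under 100 kb, and at 0.17 and 0.23 from 500 kb to 1 Mb. As deposited, the 4 h change of the members under 100 kb was 0.12. The other chromosome 19 promoters fell by 0.04, 0.07, 0.13 and 0.24 relative to all loops, and at 72 h the members had fallen less. As deposited these promoters were at 0.15 at 4 h and 0.01 at 16 h, so their direction too flipped with the scaling.

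Loops between 2 members carried the strongest late change. Their mean H3K27ac contact was 0.582 at 0 m, 0.828 at 30 min, 0.589 at 4 h, 0.829 at 16 h and 0.924 at 72 h over 1721 loops with a median length of 310 kb. The change relative to all loops was 0.42 at 30 min, -0.05 at 4 h, 0.26 (0.20 to 0.32) at 16 h and 0.50 (0.43 to 0.56) at 72 h. Loops from a member to another coding gene stood at -0.02 at 16 h and 0.21 (0.14 to 0.28) at 72 h, and loops to no coding promoter at -0.02 and 0.25 (0.21 to 0.28). As deposited the 16 h changes were 0.51 between members, 0.22 to another coding gene and 0.22 to no coding promoter, so the last 2 rose as deposited and not relative to all loops. On either scale the 16 h rise was largest where both ends were members. In H3K4me3 the loops between members were at 0.06, 0.04, 0.02 and -0.07 relative to all loops. At 4 h they stood above loops to no coding promoter, 0.04 (0.01 to 0.07) against -0.11 (-0.13 to -0.09), and at 16 h above loops to another coding gene, 0.02 (-0.01 to 0.06) against -0.11 (-0.15 to -0.06). As deposited all of these were above 0, at 0.26 and 0.12 at 4 h and 0.16 and 0.03 at 16 h.

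The clusters were then compared over time, to see whether the rises were shared by the whole family. At 30 min they were: the interval of every cluster lay above the change over all loops in H3K27ac, in 10 of 10. At 4 h 8 of 10 clusters held the change over all loops within their interval. At 16 h they parted, with 4 above, 4 below and 2 level. At 72 h 7 were above, 3 level and 0 below.

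**Figure D5:**
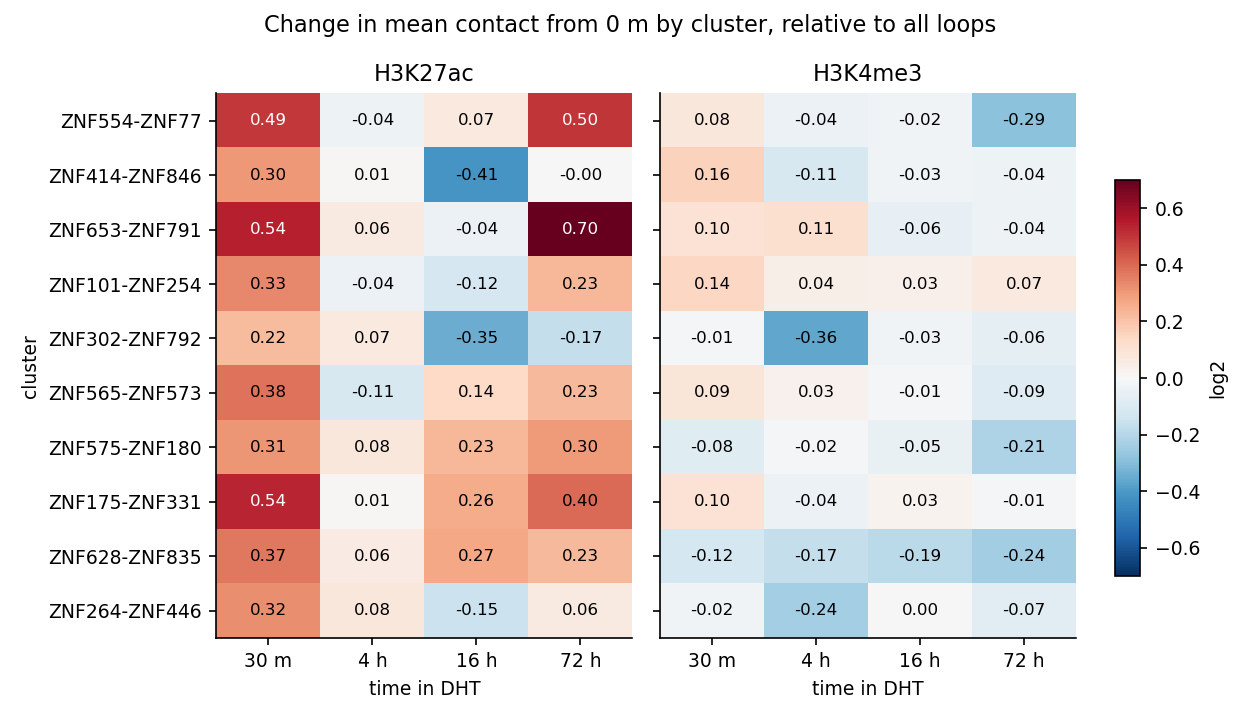
Change in mean contact from 0 m relative to all loops in each cluster and mark, with the log2 value in each cell. The H3K27ac columns at 30 min and 72 h are mostly raised, the 16 h column is split, and the H3K4me3 panel is pale apart from single cells. As deposited, every cluster is above 0 in H3K27ac at 72 h and below 0 in H3K4me3 at 72 h, so the cells of the other sign change direction with the scaling.

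The late rise was greatest in ZNF653 to ZNF791. Its mean H3K27ac contact was 0.829 at 0 m, 1.29 at 30 min, 0.906 at 4 h, 0.955 at 16 h and 1.51 at 72 h. Measured against all loops this was 0.54 (0.48 to 0.61) at 30 min, -0.04 (-0.11 to 0.03) at 16 h and 0.70 (0.63 to 0.76) at 72 h. The mean contact of the cluster rose, returned and rose again. Its 16 h change of 0.21 as deposited was below 0 only relative to all loops. The median promoter of the cluster stood at 0.15 relative to all loops at 16 h, with 13 of 24 above. This cluster was not the only source of the family's rise at 72 h. The rise was 0.50 in ZNF554 to ZNF77, 0.40 in ZNF175 to ZNF331 and 0.30 in ZNF575 to ZNF180. It was 0.23 in each of ZNF101 to ZNF254, ZNF565 to ZNF573 and ZNF628 to ZNF835. In ZNF554 to ZNF77 only 2 of 4 promoters lay above the change over all loops, and their median was -0.07.

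ZNF175 to ZNF331 lost its early rise at 4 h and was raised again at 16 h. Its mean H3K27ac contact was 0.548, 0.847, 0.578, 0.778 and 0.812 in order of time, and relative to all loops it changed by 0.54, 0.01, 0.26 (0.19 to 0.33) and 0.40 (0.32 to 0.47). ZNF628 to ZNF835 and ZNF575 to ZNF180 had similar changes at 16 h, with 0.27 (0.19 to 0.34) and 0.23 (0.09 to 0.39), and ZNF565 to ZNF573 reached 0.14 (0.06 to 0.22). These 4 clusters lie next to each other along the long arm. In ZNF628 to ZNF835 the rise was not general, since the median promoter stood at 0.02 relative to all loops and 7 of 14 lay above, while in ZNF575 to ZNF180 the median was 0.23 and 15 of 20 lay above. The 4 that fell relative to all loops at 16 h were ZNF414 to ZNF846 with -0.41 (-0.54 to -0.28), ZNF302 to ZNF792 with -0.35 (-0.55 to -0.14), ZNF264 to ZNF446 with -0.15 (-0.22 to -0.09) and ZNF101 to ZNF254 with -0.12 (-0.20 to -0.03). As deposited, the changes of the last 2 were 0.09 and 0.13, so only ZNF414 to ZNF846 and ZNF302 to ZNF792 were below 0 m on either scale.

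ZNF264 to ZNF446, the cluster with the most loops, was below all loops at 16 h and near them at 72 h. Its mean H3K27ac contact was 0.619, 0.825, 0.686, 0.661 and 0.728, its change relative to all loops at 4 h was 0.08 (0.02 to 0.15), and its change relative to all loops at 72 h was 0.06 (-0.00 to 0.13). The smallest change at 72 h as deposited was in ZNF302 to ZNF792, whose mean went from 0.715 to 0.717 and whose change relative to all loops was -0.17 (-0.37 to 0.04) on 409 read pairs. In H3K4me3 the falls were spread over time. At 4 h ZNF302 to ZNF792 stood at -0.36 (-0.47 to -0.26) and ZNF264 to ZNF446 at -0.24 (-0.27 to -0.21) relative to all loops, against -0.14 and -0.01 as deposited. The largest fall relative to all loops at 72 h was -0.29 (-0.41 to -0.16) in ZNF554 to ZNF77, followed by -0.24 in ZNF628 to ZNF835 and -0.21 in ZNF575 to ZNF180, and only ZNF101 to ZNF254 lay above, at 0.07 (0.00 to 0.13).

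Single promoters were then counted, using the contact summed over all loops of a promoter, a change of at least 1.5-fold and at least 100 read pairs over the 5 time points. In H3K27ac 214 members had enough pairs, and in H3K4me3 218. In H3K27ac many members rose and few fell at 30 min and at 72 h. In H3K4me3 few members changed by this much at 16 h or 72 h.

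At 30 min 68 of 214 members (31.8%, 25.6 to 38.5) were at least 1.5-fold higher in H3K27ac as deposited, where 18.7% of all coding promoters were, and 0 were lower, where 3.60% were. Relative to all loops 49 (22.9%) were higher, where 12.4% of all coding promoters were, and 0 lower, where 5.13% were. The other chromosome 19 promoters rose still more often, with 39.7% as deposited, so the early risers were not peculiar to the family.

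At 72 h 75 of 214 members (35.0%, 28.7 to 41.8) were at least 1.5-fold higher in H3K27ac as deposited, where 17.6% of all coding promoters were, and 8 (3.74%) were lower, where 7.06% were. Relative to all loops 47 (22.0%) were higher, where 9.22% of all coding promoters were, and 14 (6.54%) were lower, where 12.1% were. The scaling moved the share of risers among the members by more than 10 points, and under both scalings it was well above the general share. Of the 65 non-members inside the clusters, 13 (20%) were higher as deposited and 4 (6.15%) lower. Relative to all loops 9 (13.8%) were higher and 5 (7.69%) lower. These shares of risers lay nearer to those of all coding promoters than to those of the members. The median change of these non-members relative to all loops was 0.18, against 0.22 for the members, and many of their loops were the same loops. At 16 h 49 members (22.9%) were higher as deposited, where 17.9% of all coding promoters were, and 18 (8.41%) lower, where 9.52% were. Relative to all loops these became 22 (10.3%) higher, where 7.7% were, and 36 (16.8%) lower, where 19% were. The members at 16 h were thus close to coding promoters at large.

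In H3K4me3 1 member (0.459%) of 218 was higher at 16 h, where 4.76% of all coding promoters were, and 0 lower, where 0.878% were. At 72 h 0 members were higher, where 2.78% were, and 9 (4.13%) lower, where 6.64% were. Relative to all loops the 16 h counts were 0 higher, where 2.39% of all coding promoters were, and 2 (0.917%) lower, where 1.96% were. The 72 h counts were 0 higher, where 4.46% were, and 4 (1.83%) lower, where 2.77% were. At 4 h 7 (3.21%) were higher as deposited, where 14.5% were, and 5 (2.29%) lower, where 2.53% were. These became 0 higher relative to all loops, where 5.64% were, and 15 (6.88%) lower, where 6.49% were. Rises were thus rare among the members at these times, while falls were not clearly fewer than among coding promoters at large. Counting error carries fewer promoters past a fixed fold where sums are large. The median summed H3K4me3 contact at 0 m was 63.5 at the members and 19.7 over all coding promoters. At the members the median changes as deposited were 0.19, 0.13 and -0.20 at 4 h, 16 h and 72 h. Over all coding promoters they were 0.22, 0.12 and -0.15. Whether depth accounts for the few rises was not tested. Few of the other chromosome 19 promoters rose either, with 4.46% at 4 h, 1.37% at 16 h and 0.914% at 72 h as deposited. Falls among them reached 14.7% at 72 h. Of the 64 non-members inside the clusters 0 rose at 16 h or 72 h as deposited, and 2 fell at 72 h.

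The risers at 72 h were gathered in a few clusters. In ZNF653 to ZNF791, 20 of 24 promoters were at least 1.5-fold higher in H3K27ac as deposited and 18 relative to all loops, and 22 of the 24 lay above the change over all loops. In ZNF175 to ZNF331 the counts were 17 and 12 of 38, and 32 lay above. Over all coding promoters the shares were 17.6% and 9.22%. In ZNF565 to ZNF573 the counts were 11 and 4 of 24, and in ZNF575 to ZNF180 8 and 4 of 20, nearer the general share relative to all loops than as deposited. ZNF101 to ZNF254 had 5 and 3 of 25, ZNF414 to ZNF846 2 and 1 of 11 and ZNF628 to ZNF835 2 and 0 of 14. ZNF264 to ZNF446 had 5 and 4 of 39, with 19 above the change over all loops, and ZNF302 to ZNF792 had 0 of 5 on both scales. Neighbours share loops, so these promoters are not independent of each other.

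The promoter shared by ZNF490 and ZNF791 led the rising cluster. Its summed H3K27ac contact was 85.2 at 0 m, 179 at 30 min, 88.0 at 4 h, 127 at 16 h and 193 at 72 h. It was high at 30 min and 72 h and back at its starting level at 4 h. Relative to all loops this was 0.98 (0.79 to 1.18), -0.02 (-0.24 to 0.20), 0.33 (0.12 to 0.54) and 1.01 (0.81 to 1.21). Its H3K4me3 contact, the highest of any member at 0 m, was 281, 322, 413, 272 and 242, and relative to all loops it was -0.18 (-0.30 to -0.07) at 16 h and -0.09 (-0.22 to 0.05) at 72 h. The H3K27ac rise at this promoter therefore had no counterpart in H3K4me3 at late times.

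The members with the highest H3K27ac contact at 0 m were all in ZNF628 to ZNF835. ZNF581 had 146, 202, 150, 179 and 178 in order of time, and ZNF580, a close neighbour that shares loops with it, had 121, 169, 127, 155 and 149. Both rose at 30 min and stayed near the bulk later, at 0.05 and 0.10 relative to all loops at 16 h. ZNF787 had 135, 196, 141, 265 and 218, and was highest at 16 h, at 0.73 (0.58 to 0.89) relative to all loops, and 0.53 (0.36 to 0.69) at 72 h. ZNF444, a SCAN-domain gene 20 kb from ZNF787, had 114, 172, 121, 221 and 179 and moved in the same way, with 0.70 (0.53 to 0.88) at 16 h.

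The largest H3K27ac rises at 16 h among the members were at ZNF221, ZNF419 and ZNF552. ZNF221 had 6.46, 11.9, 6.84, 16.8 and 15.5 in order of time, a change relative to all loops of 1.13 (0.43 to 1.88) at 16 h on 22 and 79 read pairs. ZNF419 had 26.7, 55.4, 42.1, 63.7 and 60.3, with 1.0 (0.66 to 1.36). ZNF552 had 60.5, 110, 78.2, 135 and 107, with 0.91 (0.69 to 1.15). All 3 were already raised at 30 min and remained raised at 72 h. Picking by the 16 h change favours a low 0 m value, and the other times share that value. Their rises at 30 min and 72 h are thus no separate support. ZNF419 and ZNF552 lie in ZNF264 to ZNF446, whose mean fell relative to all loops at 16 h, so single promoters went against their cluster.

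The largest H3K27ac falls at 16 h were at ZNF471, ZNF416 and ZNF180. ZNF471 had 13.8, 13.5, 16.5, 5.31 and 10.0, a change relative to all loops of -1.63 (-2.39 to -0.90). ZNF416 had 16.2, 14.4, 13.9, 7.01 and 8.16, with -1.45 (-2.12 to -0.80). ZNF180 had 7.64, 5.58, 5.13, 3.40 and 2.89, with -1.42 (-2.41 to -0.46) on 26 and 16 pairs. Unlike most members, none of them rose at 30 min, but picking by the 16 h fall favours a high 0 m value, which that comparison shares. In H3K4me3 ZNF471 stood at 38.6, 40.3, 30.6, 38.5 and 31.9, and ZNF416 at 69.7, 59.4, 53.1, 79.3 and 54.7. As deposited, their H3K4me3 contact at 16 h thus did not fall as H3K27ac did. All loops rose by 0.14 log2 units in H3K4me3 at 16 h, so relative to them ZNF471 was lower.

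Among the H3K4me3 changes at 16 h, the rises were small and poorly measured. ZNF226 had 10.4, 11.3, 14.2, 16.8 and 10.4, with 0.55 (-0.02 to 1.15) relative to all loops. ZNF283 had 21.2, 21.9, 26.9, 30.5 and 17.6, with 0.39 (-0.01 to 0.81), and ZNF431 had 12.1, 17.4, 16.4, 17.4 and 14.0, with 0.39 (-0.15 to 0.94). All 3 intervals held the change over all loops. The falls were clearer at ZNF558, which had 44, 50.9, 58.3, 30.9 and 34.1 and stood at -0.64 (-0.97 to -0.32), and at ZNF524, whose only loop had 24.0, 24.3, 29.3, 18.8 and 16.2 and stood at -0.49 (-0.92 to -0.05). ZNF470 had 8.18, 5.81, 4.75, 5.80 and 4.95, with -0.63 (-1.42 to 0.16).

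Members with known roles were spread over the whole range. ZNF91 and ZNF93 silence SVA and L1 retroelements. ZNF91 had 78 loops and an H3K27ac contact of 93.7, 112, 81.2, 144 and 131, with 0.37 (0.18 to 0.57) relative to all loops at 16 h and 0.31 (0.11 to 0.52) at 72 h. ZNF93 had 34 loops and 30.3, 44.1, 25, 37.6 and 53.7, with 0.06 (-0.29 to 0.43) at 16 h and 0.66 (0.31 to 1.01) at 72 h. Both retroelement repressors were above all loops at 72 h, as were 15 of the 25 promoters of their cluster with enough pairs.

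ZNF274, which brings SETDB1 and TRIM28 to the 3′ ends of other ZNF genes, had 45 loops, of which 30 went to other members. Its H3K27ac contact was 34.1, 51.6, 35.0, 31.8 and 44.5, and relative to all loops it was 0.51 (0.19 to 0.83) at 30 min and -0.35 (-0.70 to 0.02) at 16 h. ZNF350, a partner of BRCA1, had 54 loops and 24.4, 25.6, 24.4, 20.8 and 23.9, with -0.48 (-0.91 to -0.04) relative to all loops at 16 h and -0.23 as deposited. ZNF420, a regulator of p53, had 44 loops and 15.6, 18.2, 16.7, 15.9 and 17.9, with -0.22 (-0.74 to 0.32) relative to all loops at 16 h and 0.03 as deposited, so its direction flipped with the scaling. ZNF160, in the same cluster as ZNF350, rose instead, with 32.9, 51.5, 32.5, 59.7 and 58.2 and 0.61 (0.29 to 0.94) at 16 h.

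ZNF568, whose mouse counterpart silences the placental transcript of Igf2, had 90 loops and an H3K27ac contact of 44.4, 58.1, 46.4, 66.2 and 67.6. It stood at 0.44 (0.14 to 0.74) relative to all loops at 72 h. ZNF304, linked to silencing of the INK4-ARF locus, had 72 loops and 16.7, 23.2, 19.7, 23.6 and 28.7, with 0.60 (0.13 to 1.09) at 72 h. ZNF331, an imprinted gene at the edge of its cluster, had only 14 loops and 5.00, 9.90, 7.05, 5.94 and 6.58. ZNF536, a neuronal gene outside the clusters, had no loop.

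Ranked by mean H3K27ac contact over the 5 times, a choice that favours loops that rose, the strongest 3 loops of the family were short loops of 5 kb from a member promoter to sequence without a coding promoter. The loop at ZNF787 (anchors 56627001 to 56628000 and 56632001 to 56633000) had 51.4, 83.0, 65.6, 119 and 95.0, with 0.97 (0.72 to 1.22) relative to all loops at 16 h. The loop at ZNF444 had 40.8, 67.1, 44.9, 116 and 91.0, with 1.26 (0.99 to 1.54), and that at ZNF552 had 36.4, 70.7, 49.8, 101 and 76.8, with 1.22 (0.93 to 1.52). The 5 kb loop at ZNF580 and ZNF581 was stronger than these 3 at 0 m, with 53.2, and stood at -0.18 (-0.46 to 0.10) at 16 h. The 20 kb loop that joins the ZNF787 and ZNF444 promoters had 17.3, 25.2, 14.7, 25.3 and 21.3, with 0.30 (-0.17 to 0.77) at 16 h.

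Among the loops that join 2 members, the 6 picked for their contact went different ways. The 40 kb loop between ZNF28 and ZNF468, picked for its H3K4me3 contact, had H3K27ac contact of 1.76, 4.86, 2.99, 11.3 and 10.5. Relative to all loops this was 2.43 (1.21 to 3.94) at 16 h, on 6 and 53 read pairs. Its H3K4me3 contact was 33.6, 41.7, 34.8, 23.6 and 23.6, with -0.64 (-1.02 to -0.27) at 16 h, so the marks went in opposite directions there. The 5 kb loop at ZNF569 and ZNF570 had -0.89 (-1.74 to -0.04) in H3K27ac and 0.07 in H3K4me3 at 16 h relative to all loops, and the 10 kb loop between ZNF304 and ZNF547 had 0.23 (-0.71 to 1.24) and 0.05. The 15 kb loop between ZNF790 and ZNF345 had H3K27ac contact of 7.93, 11.5, 6.62, 19.3 and 13.2, with 1.04 (0.40 to 1.71) at 16 h, and H3K4me3 contact of 24.0, 20.2, 34.8, 24.0 and 16.8. The 5 kb loop between ZNF524 and ZNF865 stayed between 23.0 and 25.4 in H3K27ac up to 16 h and was lowest at 72 h, at -0.39 (-0.86 to 0.09) relative to all loops.

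What the promoters share in sequence was asked last. The members are not especially rich in CG pairs, although they had many loops. The median member had 15 CG pairs in the 250 bases upstream of its start, against 18 over all coding promoters, and a G+C content of 59.2% against 63.2%. Over the whole family CG pairs rose with loop number. Members with 0, 1 to 9, 10 to 29 and 30 or more loops had medians of 10, 13.5, 15 and 17, against 5, 11, 22 and 23 over all coding promoters. Of the 15 loopless members, 9 lay in ZNF101 to ZNF254, whose median was 9. Inside that cluster the order was not kept, with medians of 10 for the loopless members and 8 for the looped ones. The rank correlation between CG pairs and loop number was 0.19 over the 240 members and 0.50 over all coding promoters. Genes are not independent replicates, and these values describe the sets only. The printed promoters of ZNF766 and ZNF536 fit the order over the whole family, while ZNF793 had few CG pairs for its 106 loops. ZNF541 and ZNF835, also without a loop, had 39 and 25 CG pairs and went against it.

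Cutting sites of the restriction enzyme MboI (GATC) had a median of 14 in the 5 kb window of the members, 15 at the other chromosome 19 promoters, 14 at the non-members inside the clusters and 12 over all coding promoters. Their rank correlation with loop number was 0.19 over the members. The number of coding starts within 500 kb gave 0.19 and unique sequence 0.03. None of these features ordered the members strongly by loop number.

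Shared ancestry was visible in the promoters of the cluster ZNF101 to ZNF254. Of the 12-base words in the 250 bases of ZNF91, the median of the 36 other members of the cluster contained 15.3%, and the highest 28.5%. Among the 203 members elsewhere the median was 0 and the highest 2.51%. Within the cluster the median was 16.7% for the 9 members without a loop and 14.2% for the 27 with a loop, so likeness to ZNF91 did not separate looped from loopless promoters. The printed pair of ZNF91 and ZNF492 shows this: nearly the same blocks stand upstream of 78 loops and of none.

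The ETS-type motif CCGGAAGT, searched on both strands with its reverse complement ACTTCCGG, was in 29 of the 240 member promoters, 12.1% (8.24 to 16.9), and in 5.05% of all coding promoters. It was as common at ZNF promoters elsewhere, with 11.0%, and at non-members inside the clusters, with 13.7%. It was unevenly spread, with 17 of 41 members in ZNF264 to ZNF446, 7 of 23 in ZNF575 to ZNF180, and 0 in 5 of the 10 clusters, among them ZNF653 to ZNF791 with 25 members and ZNF101 to ZNF254 with 37. None of the 33 members with fewer than 10 loops held it, but they include the 9 loopless members of ZNF101 to ZNF254, where no member held it. The median was 43 loops with the motif and 36 without. Within clusters the order varied, with 18 and 23 in ZNF575 to ZNF180 and 50 and 47 in ZNF264 to ZNF446. With only 2 members holding the motif in each, the medians were 23.5 and 44 in ZNF175 to ZNF331 and 90 and 53 in ZNF565 to ZNF573. With 1 such member in ZNF628 to ZNF835, they were 44 and 36. A match is a description of these letters in this window and not evidence of binding.

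Of 5 other motifs, searched on both strands, only 1 had a member interval above the share over all coding promoters. The YY1-type AAGATGGC was in 9 members (3.75%) and in 1.30% of all coding promoters. It was in 2.1% of the other chromosome 19 promoters and 2.56% of the non-members inside the clusters. The member interval, from 1.73% upward, held both of these shares, while ZNF promoters elsewhere stood at 0.847%. Of the 9 members, 5 lay in ZNF175 to ZNF331, so the motif was not spread evenly over the family. At the members and over all coding promoters, the GC box GGGGCGGG was in 33.8% and 32.9%, and the NRF1-type GCGCATGC in 2.92% and 3.81%. TCTCGCGA was in 0.833% and 1.57%, and the E-box GTCACGTG in 0.833% and 3.20%. The families of factors behind these motifs were not measured.

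Marker genes were examined beside the members. All 9 luminal prostate genes had loops, with a median of 43, where 81.0% of all coding promoters had one, and 0 of the 3 basal epithelial genes had any. Some genes of other tissues had a few, with 2 of 2 liver genes, 1 of 2 fibroblast genes and 1 of 3 blood genes looped, and at most 17 loops at any of these. Of 20 genes for the repressive machinery that works with KRAB zinc fingers, such as TRIM28 and SETDB1 and among them the member ZNF274, the median had 28 loops. At 72 h the median H3K27ac change as deposited was 0.08 over the 19 of them with enough pairs, against 0.16 over all coding promoters. As deposited 3 were at least 1.5-fold higher, where 17.6% of all coding promoters were, and 2 lower, where 7.06% were. The median relative to all loops was -0.09, so the direction flipped, with 2 higher, where 9.22% of all coding promoters were, and 3 lower, where 12.1% were.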

How the data were processed

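The authors carried out HiChIP for 2 histone marks in LNCaP cells, and the deposited values are the contact signal of each loop. The authors trimmed reads with Trim Galore 0.5.0, mapped them to hg19 with Bowtie2 inside HiC-Pro 3.1.0 at a mapping quality of 20, called loops from 5 kb to 3 Mb in merged time points of a mark with FitHiChIP at q 0.01, and scaled contact among time points. Whether both H3K27ac replicates entered the tables is not stated in the labels.

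The 10 tables held 574817 rows in 2 blocks, and 505995 distinct anchor pairs were kept, each once. The value of 1 read pair was found in each table, and all values were whole multiples of it within 0.01. Windows were 2.5 kb on either side of canonical starts, and for the 281 coding genes (3 members) without a lifted canonical transcript the annotated 5′ end was used. Changes were compared as ratios of summed read pairs with exact intervals. No test was used. Python 3.11.15, numpy 2.4.6, pandas 2.3.3, scipy 1.17.1 and matplotlib 3.10.9 were used, and the code was tested on simulated data.

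Named genes were the 6 with the most loops, the 3 with the highest contact at 0 m in each mark, the 3 that rose and the 3 that fell most at 16 h in each mark, and genes with known roles. The members and lists were chosen with earlier results of these data known. Alternatives in window, anchor width, loop set, cluster gap, scaling and strength were tried. C2H2 finger counts were left out because no protein table was available here.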

Additional observations from a re-analysis of the deposited data

How the results depend on the processing

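The looping results depended most on how wide a promoter was taken to be and on which loops counted. With a window of 1 kb the share of members with a loop was 51.3% in place of 93.8%, the median was 2 loops in place of 36, the median length 330 kb in place of 297.5 kb, the promoter-promoter share 21.4% in place of 40.4%, and the H3K27ac changes as deposited 0.35 at 16 h and 0.50 at 72 h in place of 0.28 and 0.47. The promoter-promoter share was 46.7% with a window of 5 kb, 45.8% with anchors of 5 kb, 47.6% with any coding transcript start and 48.8% with lncRNA promoters added. The same-cluster share, 78.9%, was 77.7% with a window of 5 kb, 71.4% with cluster gaps of 250 kb and 86.2% with 1 Mb.

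In the H3K27ac set alone the median was 11 loops, the length 160 kb, the promoter-promoter share 47.9% and the same-cluster share 83.1%. In the H3K4me3 set alone these were 31 loops, 330 kb and 42.5%, with the same-cluster share little moved. Keeping loops whose contact averaged 1 or more in either mark gave 16 loops, 100 kb, 44.5% and 90.2%.

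When every library was given the same total of read pairs, the H3K27ac change was 0.037 at 16 h and 0.29 at 72 h, and the H3K4me3 change -0.022 at 16 h, reversing the 0.11 as deposited, and -0.077 at 72 h in place of -0.20. Loops of at least 20 kb gave 0.24 and 0.43 in H3K27ac and 0.090 and -0.14 in H3K4me3. Keeping those that averaged 1 or more in the mark itself gave 0.36 and 0.52 in H3K27ac and -0.25 at 72 h in H3K4me3. The loop set of the mark alone gave 0.39 and 0.54 in H3K27ac. The median over promoters was 0.21 and 0.39 in H3K27ac and 0.13 at 16 h in H3K4me3.

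Leaving out ZNF653 to ZNF791 or the 20 strongest loops was added after the data were seen. Without that cluster the 72 h H3K27ac change was 0.38, and without those loops 0.21 at 16 h and 0.42 at 72 h. Of 91 alternatives 48 gave a value inside the interval of the main result, though not always the same value. Another 42 gave a value outside that interval and 1 reversed the direction, and the cause of these shifts was not tested. No paired analysis was possible because each table holds 1 value per loop and time point. C2H2 finger counts were not run.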

Other observations

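How evenly contact was spread within a promoter depended on the measure. In H3K4me3 the strongest loop of the median member carried 22.4% of the promoter's contact, against 26.9% over all coding promoters. The median number of loops was 36 at the members and 13 over all coding promoters, but those medians include promoters without a loop. The Gini coefficient measures unevenness among the loops of a promoter. It was 0.573 at the median member in H3K4me3 and 0.613 in H3K27ac, against 0.558 and 0.594 over all coding promoters. By this measure contact was less even at the members than in general. It was less even still at the other chromosome 19 promoters, with 0.611 and 0.619. Non-members inside the clusters had 0.585 and 0.605, and ZNF promoters elsewhere 0.544 and 0.585. In H3K27ac the strongest loop led to another coding promoter at 72 of 216 members, or 33.3%, against 24.7% over all coding promoters. The share was higher still at other chromosome 19 promoters, with 41.4%, and at the non-members inside the clusters, with 55%.

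The 12 members outside the clusters had a median of 23 loops, and 10 of them had a loop. Their mean H3K27ac contact was 0.999 at 0 m, 1.41 at 30 min, 1.14 at 4 h, 1.27 at 16 h and 1.25 at 72 h, higher than that of the members as a whole at every time. Their H3K4me3 contact was 2.70, 2.73, 3.37, 2.80 and 2.12, also higher at every time. Only 2 of their 294 loops went to another member.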
